A study of Oryctolagus cuniculus with 14 samples.

Results

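Gene expression was compared between 5 corneas scored as clinically impaired and 5 scored as clinically non-impaired, all from New Zealand White rabbits whose eyes had been exposed to sulfur mustard vapor 4 weeks earlier. These 10 libraries, of 14 in the series, were taken by their clinical status label. The other 4 libraries came from naive corneas of the same strain and are not compared here. They entered the fit, where they added to the estimate of the spread, to the scaling of the libraries and to the filter on low counts. All groups were thus measured in whole corneal RNA, and both groups compared had been exposed. The comparison asks how corneas that showed clinical impairment at this time differed from exposed corneas that did not. The clinical signs, the vapor dose of each eye, the age of the animals and whether each cornea came from a separate rabbit are not given in the sources used here, so p-values cover only the sample-to-sample spread, part of which may be technical.

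Sulfur mustard is an alkylating vesicant that reacts with DNA and proteins and damages the ocular surface. The cornea is a transparent and normally avascular tissue with a stratified epithelium, a collagen-rich stroma populated by keratocytes and a single-layered endothelium. After an acute injury some exposed eyes recover while others develop a late pathology, which is known for recurrent epithelial defects, inflammation and ingrowth of blood vessels. In bulk RNA, fewer cells of a type and less RNA per cell cannot be told apart. The files identify genes by Ensembl rabbit gene ID and do not pair the IDs with names, and none of the 23669 IDs was found in the RefSeq table at hand. The genes are therefore described by their levels, the size of their difference and their behavior in each library, and 4 are given by ID. The corneal identity of the samples could not be checked against marker genes for the same reason.

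Total counts per library lay between 12002876 and 15954635 in impaired corneas and between 12026170 and 17457588 in non-impaired corneas. Of 13971 genes with a count in any library, 10048 had enough counts to be tested.

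One impaired library lay about as far from the non-impaired group as from its own. Impaired 1 differed from the other impaired libraries in a median of 10.8% of its counts and from the non-impaired libraries in a median of 10.96%, so its composition was about as far from either group. In this measure the counts of 2 libraries are scaled to the same total, and the differences of all genes higher in one of them are summed. The other 4 impaired libraries were nearer to their own group, with medians between 8.28% and 11.2%, than to the non-impaired group, with medians between 11.3% and 16.2%. Impaired 4 was the farthest from its own group (11.2%), farther than impaired 1, and also the farthest from the non-impaired group (16.2%). Non-impaired libraries differed from each other by medians of 5.74% to 6.59% and from impaired libraries by 11.45% to 12.93%. Impaired 1 had the smallest total count of its group, 12002876, but non-impaired 3 and 4 were as shallow, with 12028496 and 12026170 counts, and their medians to their own group were 6.26% and 6.52%. The part of depth in the place of impaired 1 was not tested. Its clinical status is taken from the label, and whether that label is right was not tested either, so every impaired mean below depends on it. Values that move most with this library are given with and without it.

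**Figure D1:**
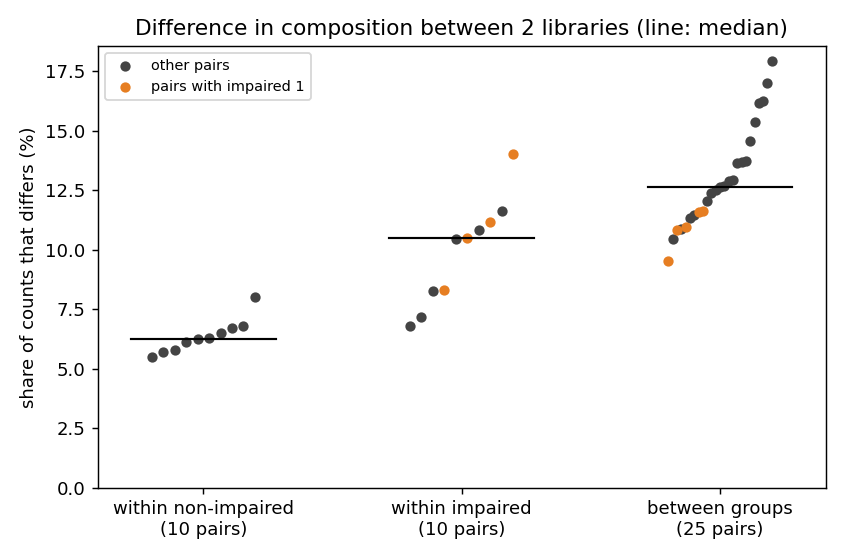
Share of counts that differs between 2 libraries, in percent, for each of the 45 pairs of exposed libraries, grouped by whether the pair lies within non-impaired, within impaired or between the groups. Orange points are pairs that include impaired 1 and lines are medians (6.26%, 10.5% and 12.6%). Every pair within the non-impaired group lies below every pair between the groups, whereas pairs within the impaired group reach into the range of the pairs between the groups.

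Impaired corneas were the more variable group. Pairs of impaired libraries differed in 6.80% to 14.01% of their counts (median 10.5%, 10 pairs), pairs of non-impaired libraries in 5.48% to 7.99% (median 6.26%, 10 pairs), and pairs across the groups in 9.51% to 17.9% (median 12.6%, 25 pairs). With impaired 1 left out, the impaired pairs ranged from 6.80% to 11.6% (median 9.35%, 6 pairs) and the pairs across the groups from 10.4% to 17.9% (median 12.9%, 20 pairs). Gene by gene, the median SD of log2 CPM (counts per 1000000 of the scaled library total) was 0.28 over the impaired and 0.20 over the non-impaired libraries. The SD was larger in impaired corneas in 6923 of 10048 genes, 68.9%, and in 5983 genes, 59.5%, without impaired 1. The biological coefficient of variation, the spread beyond counting error, was 29.8% in impaired and 20.1% in non-impaired corneas. In the impaired group it was 27.6% without impaired 4, 27.9% without impaired 1 and 30.3% to 31.4% without any 1 of the others. These measures of spread were not tested.

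The mean compositions of the groups differed in 10.7% of all counts. The counts that were fewer in impaired corneas were concentrated in few and abundant genes, and those that were more frequent were dispersed over many: 41 genes held 50% of the loss and 227 genes held 50% of the gain. Without impaired 1 these numbers were 66 and 206. Of the 10 genes with the largest difference in share, 9 had a smaller share in impaired corneas, and 9 of the 10 passed the test described below. A single gene, the most abundant of all, made up 11.3% of the entire loss. Its share was 5.81% ± 0.36 of the counts in impaired corneas (SD, n = 5), with libraries between 5.29% and 6.16%, and 7.03% ± 0.12 in non-impaired corneas (SD, n = 5), with libraries between 6.83% and 7.16%. The groups did not overlap for this gene (log2 fold change -0.27, SE 0.06, edgeR adjusted p = 0.00691). The gene with the largest gain made up 1.58% of the entire gain. It held 0.32% ± 0.07 of the counts in impaired and 0.151% ± 0.017 in non-impaired corneas (SD, n = 5 each), again without overlap (log2 fold change 1.11, SE 0.25, edgeR adjusted p = 0.00527).

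The transcriptome of impaired corneas was in this sense more even. The counts of the 100 most abundant genes in a library were summed. They were 36.2% ± 1.12 of all counts in impaired corneas (SD, n = 5), with libraries between 35.0% and 37.4%, and 39.9% ± 0.80 in non-impaired corneas (SD, n = 5), with libraries between 39.4% and 41.3%. The difference passed a two-sided exact permutation test (p = 0.00794, the smallest p that 5 against 5 libraries allow; adjusted p = 0.00794 over 2 tests). The effective number of genes, the exponential of the Shannon entropy of the counts, was 1645 ± 90.2 in impaired and 1383 ± 52.5 in non-impaired corneas (SD, n = 5 each). The libraries lay between 1537 and 1758 and between 1297 and 1437 and did not overlap (two-sided exact permutation test, p = 0.00794, adjusted p = 0.00794). Here impaired 1 was not intermediate. It had the lowest share of all 10 libraries, 35.0%, closely followed by impaired 4 at 35.09%, and the most effective genes, 1758. Without impaired 1 the differences between the groups were -3.36 percentage points and 232.7 effective genes. Both measures depended on the most abundant genes. Without the 10 most abundant genes the difference in the share moved from -3.67 to -1.19 percentage points and still passed (two-sided exact permutation test, p = 0.0159). The difference in the second measure shrank to 79.1 effective genes, which was within the spread (two-sided exact permutation test, p = 0.214).

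A single set of 100 genes, the most abundant over all 10 libraries, summed to 35.6% ± 1.36 of the counts in impaired libraries and 39.7% ± 0.78 in non-impaired ones (SD, n = 5 each). Of these 100 genes, 14 were called higher and 24 lower in impaired corneas. The 38% called compares with 32.7% over all tested genes, of which 18.4% were higher and 14.4% lower. Their median log2 fold change was -0.12, against 0.00 over all tested genes. Of the 14 higher genes 2 differed by 2-fold or more, and of the 24 lower genes none did. The counts were 14 and 25 without impaired 1, and 10 higher and 36 lower with upper-quartile scaling factors in place of the TMM factors used throughout. In a fit without the 10 most abundant genes, 12 were higher and 17 lower of the remaining 90.

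Over all tested genes, impaired and non-impaired corneas differed in 3286 of 10048, or 32.7%, by edgeR's quasi-likelihood test at a Benjamini-Hochberg adjusted p below 0.05. Of these, 1844 genes (18.4% of those tested) were higher and 1442 (14.4%) lower in impaired corneas. Which direction held more genes depended on the scaling. TMM factors centre the bulk of genes on no change. With upper-quartile factors instead, 1477 genes were higher and 1995 lower, and the median log2 fold change of all genes moved from 0.00 to -0.08. Leaving out impaired 1 gave 1945 and 1890 genes, and 738 genes were called that did not pass with all libraries, while 189 were lost. No gene called with all libraries was called in the opposite direction under any of the 24 alternative fits. In all of these fits but the one that required a minimum fold, 1141 genes were called higher and 897 lower. A gene that a fit did not test counted as not called there. The fit with the strictest filter on low counts tested 7977 genes.

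**Figure D2:**
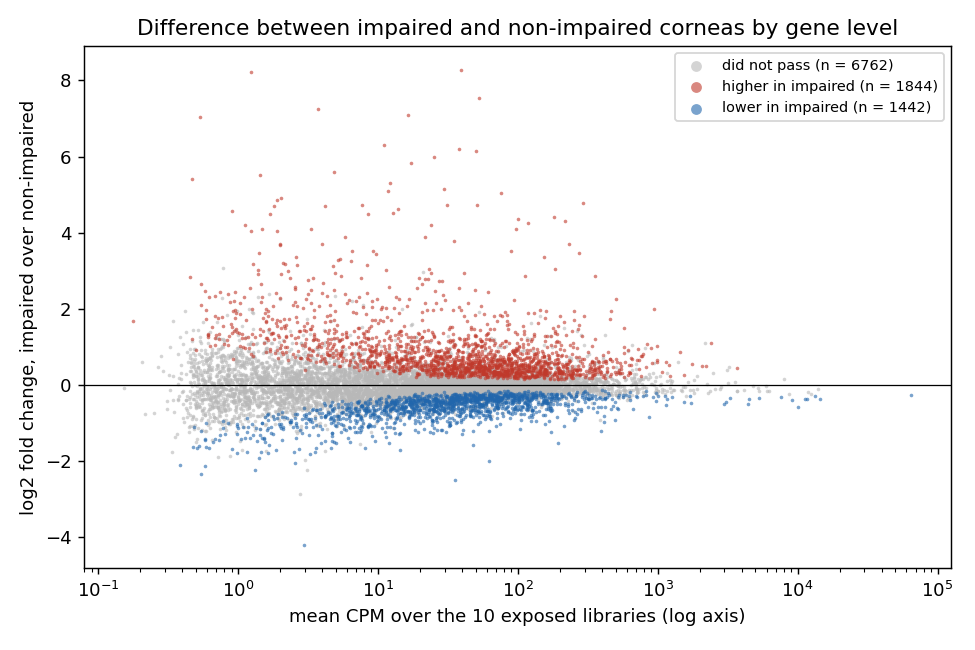
Each of the 10048 tested genes by its mean CPM over the 10 exposed libraries (log axis) and its log2 fold change of impaired over non-impaired corneas. Red points are the 1844 genes called higher, blue points the 1442 called lower and grey points the 6762 that did not pass. Differences above 8-fold lie almost only among higher genes, and the most abundant genes lie mostly just below 0.

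Most differences were small. The median log2 fold change was 0.65 among genes called higher and -0.51 among genes called lower, where the median standard error over all tested genes was 0.16. Large differences were mainly increases. Of the called genes, 1037 were 1.5-fold or more higher and 605 were 1.5-fold or more lower. A 4-fold difference or more was reached by 159 higher genes but by 7 lower genes. Without impaired 1 the counts were 1143 higher and 869 lower at 1.5-fold, and 176 higher and 15 lower at 4-fold. This held under every alternative fit: between 86 and 216 genes were called at least 4-fold higher and between 2 and 20 at least 4-fold lower. A test against a minimum difference of 1.5-fold (glmTreat in edgeR) called 253 genes, 2.52% of those tested, of which 222 were higher and 31 lower. With impaired 1 left out it called 383 higher and 131 lower genes. The 95% interval of the difference lay entirely above 2-fold for 180 higher genes and 10 lower genes, and entirely above 8-fold for 24 higher genes. These were 221, 29 and 25 genes without impaired 1.

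The genes that did not pass divide by their precision. Of these 6762 genes, 4916 (72.7%) had a 95% interval within 2-fold in either direction, and 3338 (49.4%) had one within 1.5-fold. For the other 1846 genes a difference of 2-fold or more lay within the interval. Of those, 521 had a mean below 1 CPM, 964 had 1 to 10 CPM and 361 had more than 10 CPM, so most of them had few counts. Differences of that size were still called among genes with few counts. Between 1 and 10 CPM, 224 genes were called at least 2-fold higher and 97 at least 2-fold lower. Below 1 CPM these numbers were 46 and 25. The fitted difference itself was 2-fold or more in 112 higher and 60 lower genes that did not pass.

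The share of genes called rose with the level up to 1000 CPM. Below 1 CPM, 11.6% of 649 genes were called, with a median standard error of 0.47, and between 1 and 10 CPM 22.8% of 2719 genes, with a median standard error of 0.29. Between 10 and 100 CPM 37.8% of 4791 genes were called, and between 100 and 1000 CPM 41.6% of 1799 genes, with median standard errors of 0.12 and 0.10. The direction differed by level. Between 100 and 1000 CPM 476 genes were higher and 273 lower, whereas among the 90 genes above 1000 CPM 11 were higher and 22 lower. The genes between 100 and 1000 CPM held 44.6% of the scaled counts in impaired libraries and 41.3% in non-impaired ones, and the 90 genes above 1000 CPM held 34.6% and 38.8%. The corresponding counts without impaired 1 were 522 higher and 325 lower between 100 and 1000 CPM, and 14 higher and 24 lower among 96 genes above 1000 CPM. Between 10 and 100 CPM the balance turned, from 958 higher and 851 lower genes with all libraries to 1018 and 1134 without impaired 1. With upper-quartile factors the lower genes outnumbered the higher ones between 100 and 1000 CPM too (372 higher, 427 lower), and above 1000 CPM 7 were higher and 33 lower.

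The groups did not overlap, with every impaired library above or below every non-impaired library, in 2018 genes, 20.1% of those tested. Impaired corneas were above in 1110 of them and below in 908, and 95 of the 2018 did not pass the test. Among genes called at least 2-fold higher, 329 of 540 were without overlap, and among those called at least 2-fold lower 114 of 168. Without impaired 1 the groups did not overlap in 31.1% of genes, 1730 above and 1397 below, which follows in part from comparing 4 rather than 5 libraries.

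The place of each library was then measured on genes that it had not helped to choose. For each exposed library the test was repeated without it, and its log2 CPM in the genes called was placed between the means of the remaining non-impaired libraries, set to 0, and the remaining impaired libraries, set to 1. Non-impaired libraries lay at medians from -0.01 (non-impaired 5) to 0.13 (non-impaired 3), and 85.3% to 93.0% of the genes lay on the non-impaired side of the midpoint. Impaired 2, 3, 4 and 5 lay at 1.2, 0.88, 1.04 and 1.06, with 83.4% to 91.7% of the genes on the impaired side. For them the mean set to 1 includes impaired 1, so their positions are not on the scale used for impaired 1. Impaired 1 lay at 0.41 over 3835 genes, and 42.0% of the genes lay on the impaired side. It was between the groups in both directions, with medians of 0.41 for 1945 higher and 0.42 for 1890 lower genes. With genes called at an adjusted p below 0.01 the share on the impaired side was 41.4% for impaired 1 and 88.3% to 94.7% for the other impaired libraries.

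**Figure D3:**
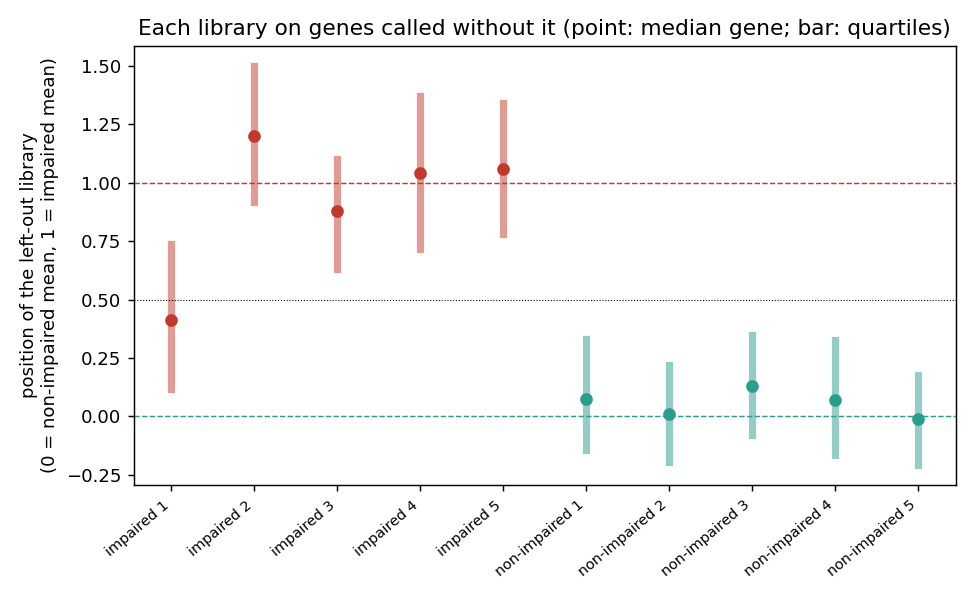
Position of each exposed library on genes called in a fit without it, where 0 is the mean of the remaining non-impaired and 1 the mean of the remaining impaired libraries in log2 CPM. Points are medians over genes and bars run from the first to the third quartile. Impaired 1 lies at 0.41, below the midpoint, while the other impaired libraries lie between 0.88 and 1.2 and the non-impaired libraries between -0.01 and 0.13. The mean set to 1 includes impaired 1 in every placement but its own, so the scales differ.

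The intermediate place of impaired 1 varied with the size of the difference. In genes less than 2-fold higher in the other impaired libraries its median position was 0.39, and 40.1% of 1357 genes lay on the impaired side. In the 521 genes that were 2-fold to 8-fold higher the median was 0.42 (41.5% on the impaired side). In the 67 genes at least 8-fold higher it was 0.59 (64.2%). Among lower genes the order was the other way. In the 1614 genes less than 2-fold lower the median was 0.44 (44.5%), and in the 276 genes at least 2-fold lower it was 0.35 (33.0%). Of these tiers, impaired 1 was nearest to the impaired mean for the largest increases on this log scale. Impaired 2 showed the opposite order among higher genes: its median position was 1.27 for genes less than 2-fold higher and 1.07 for genes at least 8-fold higher. In CPM, impaired 1 fell further short for the largest increases. It had a median of 0.51 of the impaired median level in the 70 genes called at least 8-fold higher with all libraries. In the 470 genes called 2-fold to 8-fold higher this was 0.64. The difference between these tiers was not tested.

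Among the 1844 genes called higher, impaired 2 was the highest impaired library in 672 (36.4%), impaired 4 in 523 (28.4%), impaired 5 in 414 (22.5%), impaired 3 in 127 (6.89%) and impaired 1 in 108 (5.86%). Impaired 1 was the lowest impaired library in 1100 of them. Among the 1442 genes called lower, impaired 2 was the lowest in 526 (36.5%), and impaired 1 was the highest in 793. Impaired 2 was thus the library most often farthest from the non-impaired corneas, and impaired 1 the one most often nearest to them.

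The 70 genes called at least 8-fold higher in impaired corneas were mostly weakly expressed in non-impaired corneas. Their median level was 15.7 CPM in impaired libraries and 0.701 CPM in non-impaired ones, and 42 of them had a mean below 1 CPM in the non-impaired group, where the highest reached 45.2 CPM. Together they made up 0.169%, 0.545%, 0.201%, 1.18% and 0.428% of the scaled counts in impaired 1 to 5, and 0.0230% to 0.0411% in the non-impaired libraries. Every impaired library was above every non-impaired library in this sum, and 56 of the 70 genes were without overlap one by one. These genes were chosen by this same comparison, so the sums are a description. They varied widely within the impaired group: the highest impaired library was a median of 7.25 times the lowest, against 2.81 times for the 470 genes called 2-fold to 8-fold higher. Impaired 2 was highest in 30 and impaired 4 in 19 of the 70 genes, and impaired 1 was lowest in 32 and impaired 3 in 21. Leaving out the highest impaired library lowered the impaired mean by more than 1.5 times in 21 of the 70 genes, and 54 of the 70 remained called without each exposed library in turn. The most abundant of them had 39.5, 183, 39.3, 2400 and 176 CPM in impaired 1 to 5 and 30.1, 0.803, 9.25, 32.0 and 30.3 CPM in non-impaired 1 to 5. Its impaired mean of 567 CPM was thus set by impaired 4, and impaired 1 and 3 exceeded the highest non-impaired library only narrowly (log2 fold change 4.79, edgeR adjusted p = 0.00862). Without impaired 4 its impaired mean was 109.5 ± 80.96 CPM (SD, n = 4), for a log2 difference of 2.42 (edgeR adjusted p = 0.0243). This gene was singled out after its values were seen.

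The 470 genes called 2-fold to 8-fold higher were already expressed in most cases, with a median of 5.06 CPM in non-impaired and 15.3 CPM in impaired corneas. They summed to 2.31%, 4.28%, 2.92%, 4.37% and 3.71% of the scaled counts in impaired 1 to 5 and to 1.25% to 1.38% in the non-impaired libraries. Impaired 1 was the lowest impaired library in 289 of these genes. The 168 genes called at least 2-fold lower had a median of 6.17 CPM in non-impaired and 2.49 CPM in impaired corneas. They summed to 0.232%, 0.125%, 0.177%, 0.149% and 0.151% in impaired 1 to 5 and to 0.369% to 0.458% in non-impaired libraries. Within the non-impaired group the highest library was a median of 1.72 times the lowest in these 168 genes. None of them lacked counts in the impaired group. When impaired 1 was left out, the genes called at least 2-fold lower numbered 276 and those called at least 2-fold higher 588.

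Presence and absence of whole transcripts was rare. Among all 23669 gene IDs, 6 had counts in all 5 impaired libraries and none in any non-impaired library, and 0 showed the reverse. The 6 genes had between 12 and 173 counts over the impaired group (median 21), and 2 of them had enough counts to be tested, both called higher. A total of 0 counts in the 5 non-impaired libraries allows a level of up to 0.0401 CPM (3 counts over the group, counting error only). The strongest of the 6 was at least 58.8-fold higher by this floor. When 1 exposed library was left out, 7 to 13 genes were found in all remaining impaired and no remaining non-impaired libraries, and 0 to 4 in the reverse.

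Single genes were selected as those with the largest difference among genes that were called with all libraries and without each exposed library in turn, reached a mean of 5 CPM in one of the groups and did not overlap between them. In all, 872 higher and 711 lower genes met these conditions, and the first 2 in each direction are given by ID. All 4 were called in every alternative fit.

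ENSOCUG00000021775 was nearly absent from non-impaired corneas and clearly expressed in impaired corneas. Its level was 8.04, 101.5, 56.7, 164.5 and 59.2 CPM in impaired 1 to 5 and 0.351, 0.185, 0.168, 0.251 and 0.236 CPM in non-impaired 1 to 5. The lowest impaired library, impaired 1, was still far above the highest non-impaired library. The means were 78.0 ± 58.6 CPM and 0.238 ± 0.072 CPM (SD, n = 5 each), a ratio of 327, and rested on 5635 counts in impaired and 18 counts in non-impaired libraries. The log2 fold change was 8.28 (SE 0.82, edgeR adjusted p = 8.90e-05). Without impaired 1 the impaired mean was 95.5 ± 50.4 CPM (SD, n = 4), with a log2 difference of 8.55 (SE 0.50, edgeR adjusted p = 1.09e-06).

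ENSOCUG00000011838 was the most even of the strongly raised genes given here. It had 90.6, 148.3, 74.3, 113.6 and 99.9 CPM in impaired 1 to 5 and 1.17, 0.370, 0.505, 0.251 and 0.413 CPM in non-impaired 1 to 5. In this gene impaired 1 lay within the range of the other impaired libraries, and non-impaired 1 was the highest of its group. The means were 105.4 ± 27.9 CPM and 0.542 ± 0.363 CPM (SD, n = 5 each), a ratio of 194. The log2 fold change was 7.53 (SE 0.40, edgeR adjusted p = 2.41e-07).

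ENSOCUG00000008583 was lower in impaired corneas and varied in both groups. It had 12.7, 8.29, 16.2, 2.99 and 12.7 CPM in impaired 1 to 5 and 18.4, 124.9, 43.0, 48.7 and 65.8 CPM in non-impaired 1 to 5. Impaired 3 and non-impaired 1 almost met, and the other libraries were well apart. The mean fell from 60.2 ± 39.97 CPM in non-impaired to 10.6 ± 5.08 CPM in impaired corneas (SD, n = 5 each; log2 fold change -2.51, SE 0.53, edgeR adjusted p = 0.00366).

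ENSOCUG00000008197 was likewise lower. It had 45.5, 7.86, 20.5, 39.6 and 12 CPM in impaired 1 to 5 and 94.1, 115.2, 63.5, 100.4 and 121.6 CPM in non-impaired 1 to 5. Impaired 1 was the impaired library nearest to the non-impaired group. The means were 25.1 ± 16.7 CPM in impaired and 98.9 ± 22.7 CPM in non-impaired corneas (SD, n = 5 each), a log2 difference of -1.98 (SE 0.40, edgeR adjusted p = 0.00314). Without impaired 1 the impaired mean was 19.99 ± 14.1 CPM (SD, n = 4), for a log2 difference of -2.33 (SE 0.40, edgeR adjusted p = 0.000953).

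**Figure D4:**
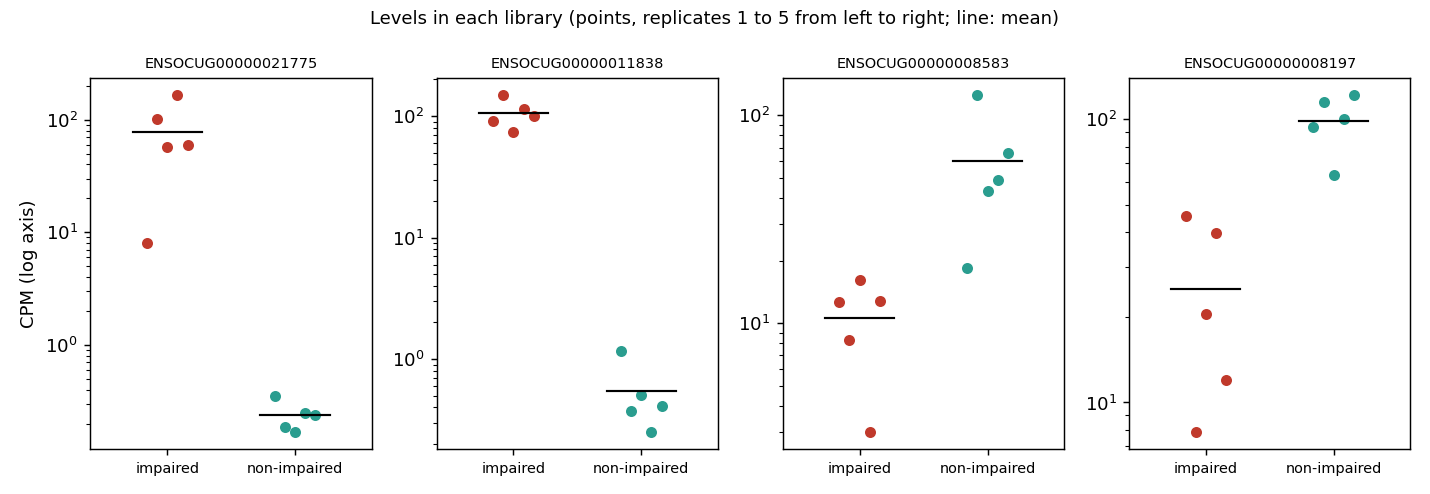
CPM (log axis) of the 4 genes given by ID in the 5 impaired and 5 non-impaired libraries, with replicates 1 to 5 from left to right in each group and a line at the group mean. The first and second genes are above 8 CPM in every impaired and below 1.2 CPM in every non-impaired library, and the others are lower in every impaired library than in any non-impaired library.

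The next 8 genes in each direction by the same conditions showed the same asymmetry. All were ranked by the size of their difference in this same comparison, so the asymmetry is a description. Those higher in impaired corneas had group means of 7.42 to 98.9 CPM in impaired and 0.0403 to 1.44 CPM in non-impaired ones, and log2 fold changes ran from 5.60 to 7.26 (SE 0.48 to 1.09). In 6 of these 8 genes the highest impaired library was more than 5 times the lowest. The gene at 7.42 CPM had 3.25 ± 2.53 CPM without impaired 5 (SD, n = 4), and another at 9.56 CPM had 5.97 ± 2.61 CPM without the same library (SD, n = 4). Those lower in impaired corneas had 5.46 to 286.0 CPM in non-impaired and 1.597 to 99.3 CPM in impaired ones, and their log2 fold changes ran from -1.77 to -1.51 (SE 0.17 to 0.41). In none of these 8 was the highest non-impaired library more than 5 times the lowest. The condition of no overlap leaves less room for such a spread where the difference is smaller. The most abundant of the lowered genes had 155.7, 78.5, 89.1, 80.5 and 92.7 CPM in impaired 1 to 5 and 295.4, 332.1, 264.7, 257.6 and 280.2 CPM in non-impaired 1 to 5, with impaired 1 again nearest to the non-impaired group (log2 fold change -1.53, SE 0.20, edgeR adjusted p = 0.000521). This last gene was singled out after its values were seen.

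**Figure D5:**
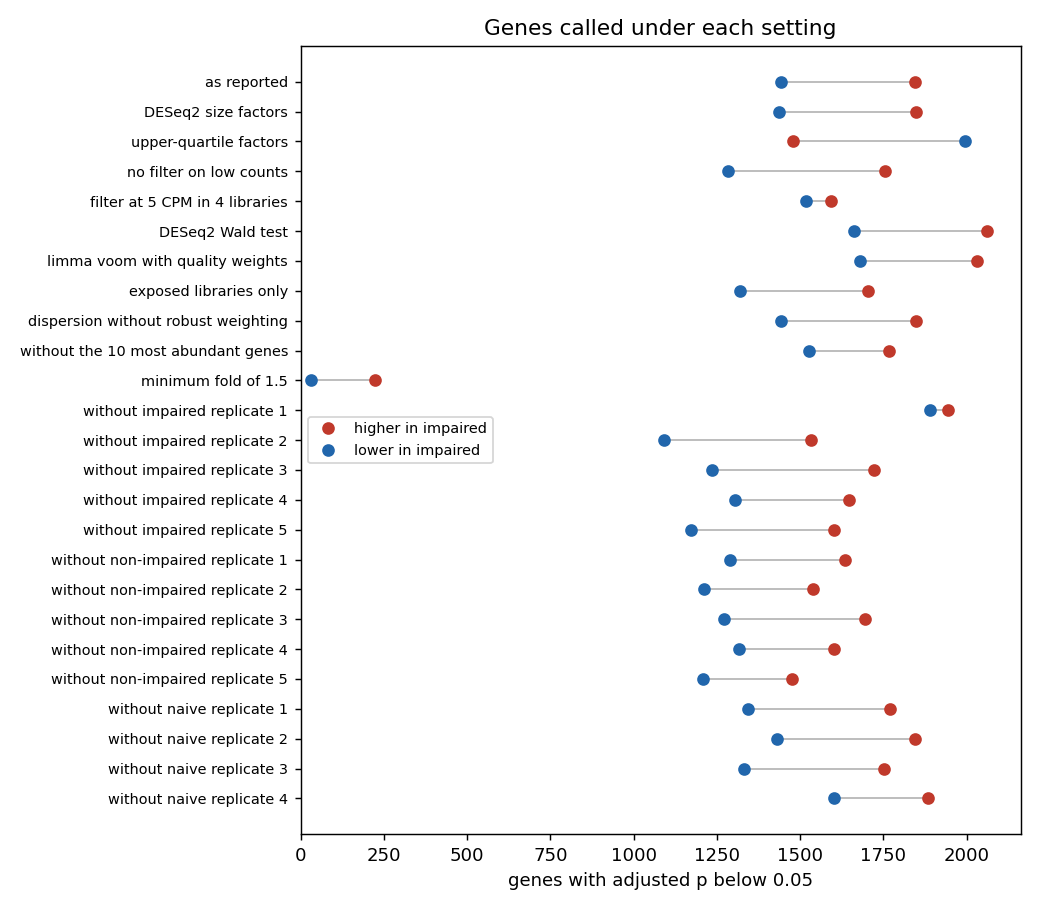
Number of genes called higher (red) and lower (blue) in impaired than in non-impaired corneas at an adjusted p below 0.05, for the fit as reported and 24 alternatives. With upper-quartile factors the order of the directions is reversed, 1477 higher and 1995 lower, and with a minimum fold of 1.5 the counts drop to 222 and 31.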

How the data were processed

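RNA from rabbit corneas was extracted with a phenol-based reagent after storage in a stabilising solution and sequenced from TruSeq RNA kit libraries, per the labels' protocols. The deposited values are raw counts per Ensembl rabbit gene ID, 1 file for each library. Per the submitters' processing notes, the build was OryCun2.0 and the tools included DESeq, Cufflinks 2.0.2, TopHat2 2.1.0 and bcl2fastq 2.17. The annotation release, the counting program, its strand setting and how it counted multiply mapped reads are not given in the sources used here, so counts of overlapping, antisense or near-identical genes are uncertain. A RefSeq table of assembly mOryCun1.1 with 38822 genes held 0 of the 23669 IDs, and gene lists, markers, coordinates and sequences were not used here.

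Libraries were grouped by clinical status. The labels give no batch, and replicate numbers only name libraries. Near-identical counts were found in no pair (lowest chi-square per gene 14.2). The default expression filter in edgeR 4.0.16 (R 4.3.3) kept 10048 genes with 99.96% of all counts. Library totals were scaled by TMM factors, between 0.924 and 1.06 in exposed libraries. All 14 libraries entered 1 robust quasi-likelihood fit with 11 residual degrees of freedom, and impaired was tested against non-impaired. A gene was called at a Benjamini-Hochberg adjusted p below 0.05. Standard errors and 95% intervals were derived from the F statistic and the fold change. Log2 CPM used a prior count of 2. Shares of counts and distances between libraries used unscaled totals, and the sums over gene sets used TMM-scaled totals. Single values per library were compared by exact permutation tests.

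Alternatives were DESeq2 1.42.0 and its size factors, limma 3.58.1 with voom, upper-quartile factors, 2 other filters on low counts, a fit on exposed libraries only, no robust weighting, removal of the 10 most abundant genes, a minimum fold of 1.5, and fits without any 1 of the libraries. The 10 genes removed from the fit as most abundant were ranked over all 14 libraries, the naive ones included. Counts by fold under each alternative, and the other values without impaired 1, were added after the data were seen. Several of the fits were also run on simulated data, whose outcome is not used as support here. In the simulation each gene had the same spread in all groups, and far fewer genes were changed than were called here. The libraries, conditions for naming genes and alternatives were chosen with earlier results of these data known. Counts and floors rest on reads without molecular identifiers, and the floors cover counting error only. The intervals were derived from the F statistic of the fit, so they also include the spread between libraries.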

Additional observations from a re-analysis of the deposited data

Results flagged for a closer look

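In 14 checks of a group of 5 libraries, 3 had a highest or lowest library far from the others by Dixon's criterion, which chance meets in about 1 of 20 groups. Impaired 1 had 42.0% of its held-out genes on the impaired side of the midpoint, against 83.4% to 91.7% in the other impaired libraries. Non-impaired 5 had 41.3% of its counts in its 100 most abundant genes, against 39.4% to 39.7% in the other non-impaired libraries. ENSOCUG00000011838 had 1.17 CPM in non-impaired 1, against 0.251 to 0.505 CPM in the other non-impaired libraries.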

How the results depend on the processing

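With each library left out in turn, the genes called higher in impaired corneas ranged from 1474 to 1945 and those called lower from 1090 to 1890, and the higher genes were 50.7% to 58.4% of the calls. Upper-quartile factors turned that share from 56.1% to 42.5%, and the cause was not tested. A minimum fold of 1.5 left 222 higher and 31 lower genes, and a stricter hypothesis entails fewer calls. Of these genes 87.7% were higher, a share that the stricter hypothesis does not entail and whose cause was not tested. The other alternatives stayed within 1.5 times of the reported counts. The stricter filter, which tested 7977 genes, reduced the genes called at least 2-fold higher from 540 to 350 and at least 2-fold lower from 168 to 98, and those at least 8-fold higher from 70 to 41. The unfiltered fit called 105 genes at least 8-fold higher. The effective number of genes lost its call without the 10 most abundant genes (difference 79.1, exact permutation test, p = 0.214). The difference in the share of the 100 most abundant genes was -1.19 percentage points in that setting, against -3.67 as reported, and passed (exact permutation test, p = 0.0159). Genes found in all libraries of the impaired group only ranged from 7 to 13, and of the non-impaired group only from 0 to 4, with 1 library left out, since fewer libraries are required. The share of counts that differs ranged from 9.93% to 11.7% over its alternatives. No paired analysis was possible because the labels link no library of one group to a library of another, and the numbers given here follow accession order. Below 10 CPM the median standard errors were 0.29 and 0.47, and the part of depth in this was not tested.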
